A study of Homo sapiens with 24 samples.

Results

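The cluster of miR-302 and miR-367 is a run of 5 microRNA hairpins on the minus strand of human chromosome 4. It holds 10 of the 2652 mature miRNAs in the deposited tables, namely the 5p and the 3p arm of miR-302b, miR-302c, miR-302a, miR-302d and miR-367. Members were taken by position and strand, so miR-302e and miR-302f, which lie on other chromosomes, are not among them. The cluster was picked because its level in siSFPQ libraries against siCtrl libraries had been seen, so those levels are given as a description and nothing is inferred from a test of them.

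Small RNA was sequenced from SBC-3, a human small cell lung cancer line with the genotype label WT in every sample, 72 h after transfection with 10 nM of an siRNA or an antisense oligonucleotide (ASO). The 24 libraries formed 8 groups of 3: siSFPQ-3 and siSFPQ-2 (siRNAs against SFPQ), siNONO-3 and siNONO-4 (against NONO), ASO-NEAT1-1047 and ASO-NEAT1-1473 (ASOs against NEAT1), and the controls ASO-Ctrl and siCtrl. All cells therefore received RNAiMAX and an oligonucleotide, and no untransfected cells were among the samples analysed here. SFPQ and NONO are partner proteins of the nucleus that bind RNA and sit in paraspeckles, bodies that form on the long noncoding RNA NEAT1, and the design asked how loss of each changes miRNAs. Nothing in the labels says whether replicates came from separate cultures, so the p-values measure the spread between these libraries, which may be technical. The knockdowns themselves cannot be checked in small RNA tables.

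The hairpins of the cluster are cut from a single primary transcript, first in the nucleus by Drosha and then in the cytoplasm by Dicer, which leaves a duplex of a 5p and a 3p arm. Usually a single arm is kept in Argonaute, where bases 2 to 8, the seed, pair with target messages. The cluster is a hallmark of embryonic stem cells, where OCT4 and SOX2 drive its host gene and where its miR-302 arms promote cell cycle entry, and it is silenced as cells differentiate.

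The sequences show why the arms have to be read in groups. Seeds are in capitals, sequences run 5′ to 3′ and are from RefSeq on GRCh38.p14, in which all 10 members and miR-302e were found. Identifiers are those of the deposited tables. The 3p arms of the 4 miR-302 hairpins share a seed:
miR-302b-3p (MIMAT0000715): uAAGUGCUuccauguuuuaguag
miR-302c-3p (MIMAT0000717): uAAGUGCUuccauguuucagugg
miR-302a-3p (MIMAT0000684): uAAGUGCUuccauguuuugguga
miR-302d-3p (MIMAT0000718): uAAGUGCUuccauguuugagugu
miR-302e: uAAGUGCUuccaugcuu

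The 5p arms and both arms of miR-367 carry other seeds, of which miR-302b-5p and miR-302d-5p share 1:
miR-302b-5p (MIMAT0000714): aCUUUAACauggaagugcuuuc
miR-302c-5p (MIMAT0000716): uUUAACAUggggguaccugcug
miR-302a-5p (MIMAT0000683): aCUUAAACguggauguacuugcu
miR-302d-5p (MIMAT0004685): aCUUUAACauggaggcacuugc
miR-367-5p (MIMAT0004686): aCUGUUGCuaauaugcaacucu
miR-367-3p (MIMAT0000719): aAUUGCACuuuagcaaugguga

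The 4 miR-302 3p arms were identical over their first 17 bases. Counted from the 5′ end, miR-302b-3p differed from miR-302c-3p by U18C and A22G, and miR-302a-3p differed from miR-302d-3p by U18G, G19A and A23U. The 5p arms were less alike, and the longest run that miR-302a-5p shared with another 5p arm was 6 bases, with miR-302d-5p.

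On hg38 the hairpins spanned 684 bases (chr4:112647874-112648557). In the direction of transcription they followed in the order MIR302B, MIR302C, MIR302A, MIR302D and MIR367, with gaps of 54, 111, 111 and 62 bases. All 10 mature miRNAs lay inside the long noncoding gene AC106864.1 of GENCODE v29 (chr4:112646476-112650051, minus strand), which RefSeq calls MIR302CHG, and antisense to an intron of LARP7 (chr4:112636964-112657592, plus strand), which encodes a 7SK RNA binding protein. The arm miR-302b-5p overlapped an exon in 1 of the 3 transcripts of AC106864.1 that span it. No other member overlapped an exon in any of the 3.

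RefSeq lists 2 start sites for MIR302CHG, and their promoter windows, 250 bases before to 50 after the start, are shown because the members moved together. The windows were searched on both strands for the octamer ATGCAAAT of OCT4-type factors, the core ATTGTT of SOX-type factors and the TATA element TATAAA. Matches are in capitals. In the upstream window (chr4:112650002-112650301, minus strand) the octamer began 202 bases before the start and overlapped a SOX-type core by 2 bases. In the downstream window (chr4:112648654-112648953, minus strand), close to the first hairpin, a TATA element began 29 bases before the start.
MIR302CHG upstream window: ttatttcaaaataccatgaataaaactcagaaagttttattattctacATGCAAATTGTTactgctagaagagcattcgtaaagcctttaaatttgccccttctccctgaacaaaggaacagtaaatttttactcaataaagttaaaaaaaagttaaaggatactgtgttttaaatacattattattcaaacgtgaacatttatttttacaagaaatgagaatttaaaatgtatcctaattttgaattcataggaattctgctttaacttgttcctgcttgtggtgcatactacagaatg
MIR302CHG downstream window: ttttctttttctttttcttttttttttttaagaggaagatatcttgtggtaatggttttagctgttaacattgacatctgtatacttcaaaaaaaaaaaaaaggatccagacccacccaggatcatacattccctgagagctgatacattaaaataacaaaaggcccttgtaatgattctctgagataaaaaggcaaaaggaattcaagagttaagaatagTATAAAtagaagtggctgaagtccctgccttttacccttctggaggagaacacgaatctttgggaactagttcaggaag
Of 35116 such windows in the RefSeq table, 1.77% held the octamer, 10.1% the SOX-type core and 11.5% the TATA element. A match is a stretch of letters and says nothing of binding in these cells.

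Libraries held 2038382 to 4279644 miRNA counts and 927 to 1220 detected miRNAs. Levels are CPM, counts scaled to a library of 1e+06, set on library sizes scaled by TMM, a factor that centres the bulk of miRNAs between libraries. The labelled cell type was compared with marker miRNAs. Of 8 neuroendocrine markers 7 were matched by name and all 7 were detected, led by miR-9-5p at 46751 to 69685 CPM in siSFPQ libraries and 82511 to 97511 CPM in siCtrl libraries. Another defining marker, miR-375-3p, was near 0, at 3.88 to 8.55 CPM in siSFPQ libraries and 0.332 to 1.12 CPM in siCtrl libraries. Markers of pluripotent or germ cells other than the cluster summed to 0.316 to 1.53 CPM in siSFPQ libraries and 0 to 0.664 CPM in siCtrl libraries, with miR-371a-3p, miR-371a-5p, miR-373-3p and miR-512-3p at 0 in all 24. The 4 matched blood cell markers summed to 27.9 to 66.6 CPM in siSFPQ libraries and 49.5 to 105 CPM in siCtrl libraries. The 6 fibroblast and muscle markers summed to 23552 to 35229.6 CPM in siSFPQ libraries and 32652 to 49688 CPM in siCtrl libraries. Nearly all of that was miR-199a-3p, at 23322 to 34936 CPM in siSFPQ libraries and 32130 to 49194 CPM in siCtrl libraries. The next, miR-1-3p, had 77.9 to 171 CPM in siSFPQ libraries and 289 to 332 CPM in siCtrl libraries. The 7 neuroendocrine markers summed to 68055 to 90609 CPM in siSFPQ libraries and 111736 to 124780.0 CPM in siCtrl libraries, without overlap on these TMM-scaled sizes. That sum was carried by miR-9-5p and miR-7-5p, while miR-9-3p, miR-129-5p, miR-182-5p and miR-183-5p overlapped between the groups and miR-375-3p was higher in siSFPQ libraries. TMM factors were 1.09 to 1.36 in siSFPQ libraries and 0.846 to 0.969 in siCtrl libraries. Against library totals, that lowers CPM in siSFPQ and raises it in siCtrl. Marker levels were not compared on library totals, so lower marker CPM in siSFPQ libraries depends on the scaling. The part of these markers in the results on the cluster was not tested.

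The cluster was present in all 6 siSFPQ libraries and near the limit of detection in the other 18. Summed over its members it had 3690.3, 3055 and 664 CPM in siSFPQ-3 replicates 1 to 3, and 1798, 1120.4 and 176 CPM in siSFPQ-2. It made up 0.501%, 0.378% and 0.0858% of all miRNA counts in siSFPQ-3 and 0.197%, 0.146% and 0.0196% in siSFPQ-2. The lowest siSFPQ library thus stood far above the highest of the 18 others, which reached 1.48 CPM. In bulk samples such as these, fewer cells of a type and less RNA per cell cannot be told apart.

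In counts, the siSFPQ-3 libraries had 16318, 13943 and 2570 and the siSFPQ-2 libraries 5961, 3551 and 480. The siNONO-3 libraries had 2, 1 and 0, siNONO-4 had 4, 6 and 1, ASO-NEAT1-1047 had 2, 0 and 3, ASO-NEAT1-1473 had 2, 2 and 3, ASO-Ctrl had 3, 4 and 2, and siCtrl had 0, 2 and 1. These 18 libraries shared 38 counts in all, 15 of them had any, and no member exceeded 3 counts in any of them. The ratio of siSFPQ over the 18 others was 2834 (95% counting interval 2064 to 4005), and that of siSFPQ over siCtrl, with 3 counts, was 4849 (1659 to 23516). Counting intervals cover counting error only. For a fold against 18 libraries, siSFPQ-3 alone gave 3731 and siSFPQ-2 alone 1584.

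**Figure D1:**
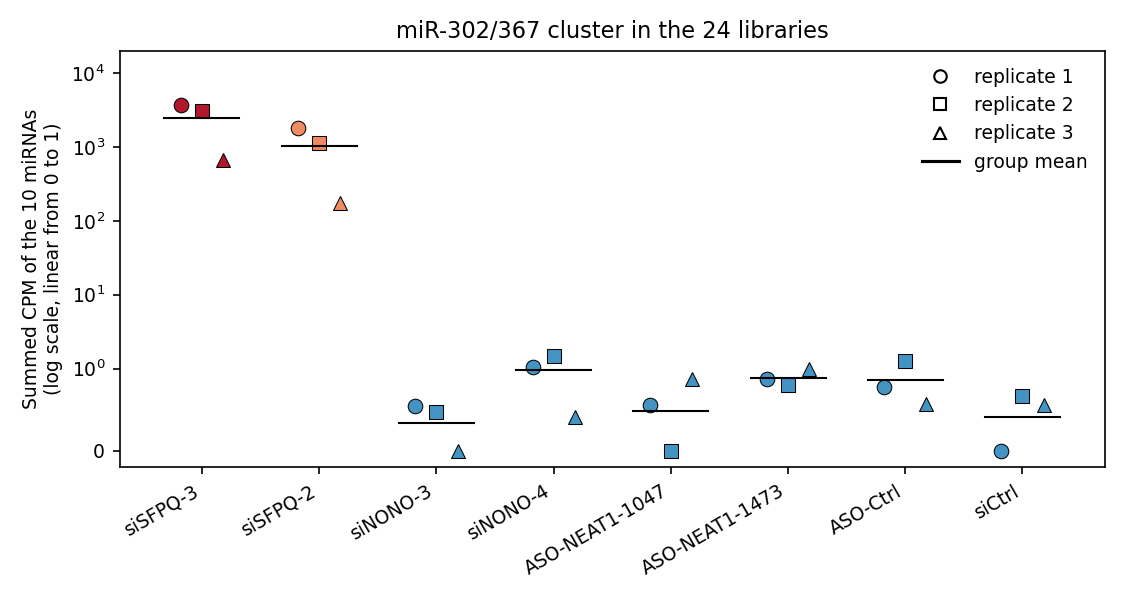
Summed CPM of the 10 cluster members (y axis, log scale that is linear from 0 to 1) in each of the 24 libraries by group (x axis), with symbols for replicates and lines for group means. The 6 siSFPQ libraries lie between 176 and 3690.3 CPM and the other 18 at or below 1.48 CPM.

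Ordered by mean, the cluster stood at 2469.9 ± 1596 CPM in siSFPQ-3 and 1031 ± 815 CPM in siSFPQ-2 (SD, n = 3 each). Next came siNONO-4 at 0.980 ± 0.536 CPM, ASO-NEAT1-1473 at 0.887 ± 0.0985 CPM and ASO-Ctrl at 0.863 ± 0.351 CPM. The last were ASO-NEAT1-1047 at 0.477 ± 0.444 CPM, siCtrl at 0.405 ± 0.355 CPM and siNONO-3 at 0.337 ± 0.294 CPM. Group ranges did not overlap between siSFPQ-2 and siNONO-4, and every other pair of neighbours overlapped in its libraries' values.

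Within the siSFPQ libraries the members fell into strong, middle and weak products. miR-302c-3p, a carrier of the shared seed, had 1093, 839 and 179.6 CPM in siSFPQ-3 and 506, 300.4 and 47.9 CPM in siSFPQ-2. It ranked 74th, 85th and 164th by count among all miRNAs in siSFPQ-3 and 103rd, 125th and 274th in siSFPQ-2. So the cluster joined the more abundant miRNAs of these cells without coming near the top of the list.

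miR-302b-3p, its close copy, had 985, 735 and 165 CPM in siSFPQ-3 and 464, 266 and 46.5 CPM in siSFPQ-2. miR-302a-5p, whose seed is its own, had 891, 922 and 225 CPM in siSFPQ-3 and 485, 354 and 58.2 CPM in siSFPQ-2. These 3 miRNAs were the strong products in every siSFPQ library. Their order changed: miR-302c-3p led in siSFPQ-3 replicate 1 and siSFPQ-2 replicate 1, and miR-302a-5p in the other 4.

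The middle products were the remaining 3p arms of the miR-302 hairpins. miR-302d-3p had 345, 283 and 45.5 CPM in siSFPQ-3 and 169, 96.5 and 11.3 CPM in siSFPQ-2. miR-302a-3p had 323, 237 and 39.5 CPM in siSFPQ-3 and 147, 84.6 and 9.51 CPM in siSFPQ-2. Each was higher in siSFPQ-3 than in siSFPQ-2 at its maximum, but siSFPQ-3 replicate 3 lay below siSFPQ-2 replicates 1 and 2, so the groups overlapped for both.

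The weak products were miR-367-3p, which shares the seed of the miR-25/92 family, and the 5p arms of miR-302b, miR-302c, miR-302d and miR-367. miR-367-3p had 14.5, 10.3 and 3.36 CPM in siSFPQ-3 and 7.24, 5.36 and 0.366 CPM in siSFPQ-2. miR-302c-5p had 20.8, 12.7 and 2.07 CPM in siSFPQ-3 and 8.75, 8.83 and 1.098 CPM in siSFPQ-2. miR-302b-5p and miR-302d-5p stayed at or below 11.3 and 6.33 CPM in every library. miR-367-5p had 2, 2 and 0 counts in siSFPQ-3 and 3, 1 and 0 counts in siSFPQ-2, against 0 in siCtrl, and a difference of that size was not detectable at this depth.

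**Figure D2:**
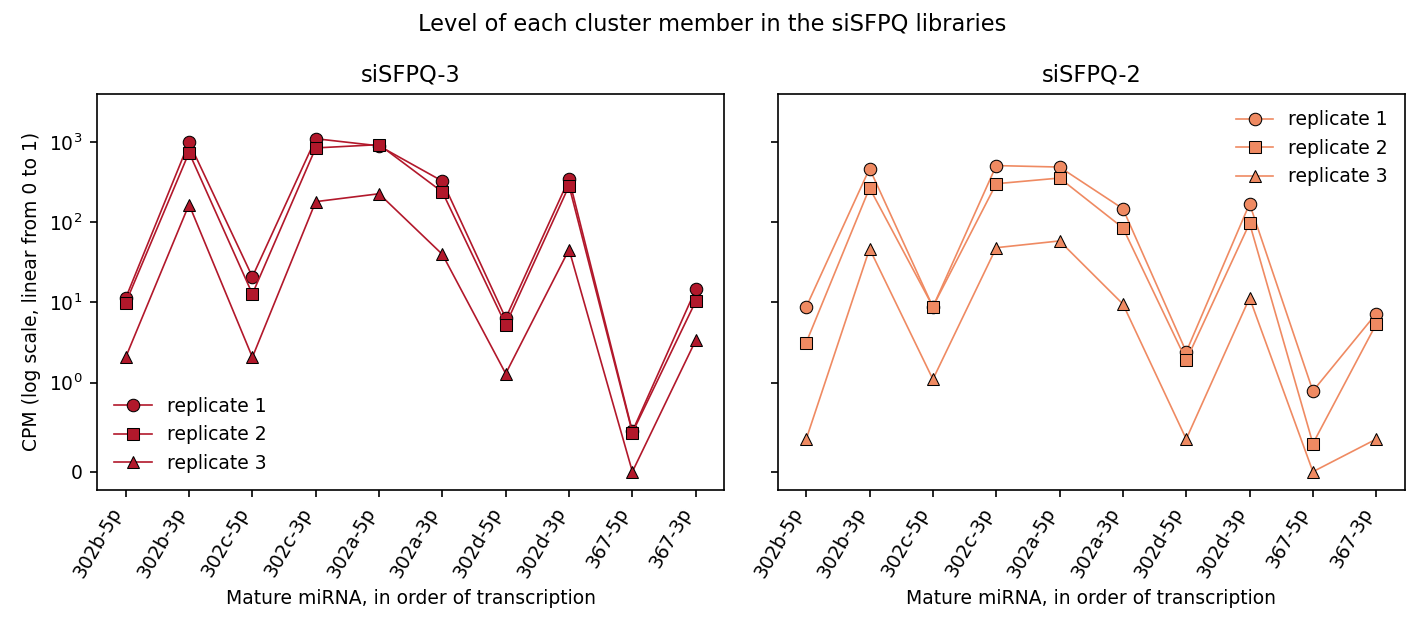
CPM of each member (y axis, log scale that is linear from 0 to 1) in the order in which the arms are transcribed (x axis), with siSFPQ-3 on the left, siSFPQ-2 on the right and a line for each replicate. miR-302b-3p, miR-302c-3p and miR-302a-5p are highest in all 6 libraries, and replicate 3 is lowest in both groups.

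In the 18 other libraries 6 of the 10 members were detected. miR-302a-5p had 15 counts there, miR-302b-3p and miR-302c-3p had 9 each, miR-302a-3p had 3, and miR-302c-5p and miR-367-3p had 1 each. The other 4 members, miR-302b-5p, miR-302d-5p, miR-302d-3p and miR-367-5p, had 0, which allows up to 0.0540 CPM over these libraries. Against that floor of 3 counts over the 18 libraries, miR-302d-3p with its 3890 counts was at least 3261-fold higher in siSFPQ libraries. miR-302b-5p was at least 119.9-fold higher and miR-302d-5p at least 60.4-fold higher.

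A fit with edgeR's quasi-likelihood test over all 24 libraries tested 626 miRNAs, 8 members among them, and miR-302d-5p and miR-367-5p had too few counts. In siSFPQ over siCtrl, 48.2% of the tested miRNAs passed an adjusted p of 0.05, 25.6% as higher and 22.7% as lower. Set alone against siCtrl, siSFPQ-3 had 22.7% and siSFPQ-2 23.2% of the tested miRNAs called higher. The 8 members were among the higher ones. They were chosen by this contrast, passed the filter through the siSFPQ libraries alone and had 0 or 1 count each in siCtrl, so nothing is read from their number.

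Whether the siRNAs differ from each other is a question the choice of members did not use. The cluster was 2.77-fold higher in siSFPQ-3 than in siSFPQ-2 (difference of mean log2 CPM 1.47, 3 libraries each), and the groups overlapped. The difference was 0.46 without siSFPQ-2 replicate 3, 2.25 without siSFPQ-3 replicate 3 and 2.03 with sizes from spike-in totals. An exact two-sided permutation test gave p = 0.3, where 3 against 3 cannot go below 0.1. Member by member, log2 fold changes of siSFPQ-3 over siSFPQ-2 ran from 0.89 ± 0.75 (SE) for miR-302b-5p to 1.31 ± 0.68 for miR-302a-3p. All 8 were positive, but the members moved together across these libraries, so their signs are not separate results. None of the 8 members passed with edgeR's quasi-likelihood test (lowest adjusted p = 0.66, and 3 members with an unadjusted p under 0.05), beside a background of 0.639% of tested miRNAs called, or 4, none of them higher and 40 with an unadjusted p under 0.05. DESeq2 called none of the 8 members either. With no filter on low counts, edgeR called 5 of the members, the 4 miR-302 3p arms and miR-302a-5p, out of 6 calls among all miRNAs. Compared by replicate number, the cluster was 2.05-, 2.73- and 3.78-fold higher in siSFPQ-3 than in siSFPQ-2 for replicates 1, 2 and 3. A fit with a term for replicate number (replicate block) called the same 5 members, out of 12 calls. The labels do not say whether equal numbers are pairs.

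Replicate 3 was the lowest library of both siSFPQ groups, which was singled out after its values were seen. The cluster was 664 CPM in siSFPQ-3 replicate 3 against a mean of 3373 CPM in replicates 1 and 2, or 5.08-fold lower. In siSFPQ-2 it was 176 CPM against 1459 CPM, or 8.31-fold lower. Among the 400 miRNAs with a mean of at least 10 CPM in siSFPQ libraries, all 5 members were at least 2-fold lower in replicate 3 of both groups. Of the 395 others, miR-302e was the 1 that did the same. Library counts were 2994281 in siSFPQ-3 replicate 3, the lowest of its group, and 2449818 in siSFPQ-2 replicate 3, where replicate 2 had 2433943. Replicate 3 also had the fewest detected miRNAs in both groups. These were 1143 against 1185 and 1220 in siSFPQ-3, and 1055 against 1108 and 1117 in siSFPQ-2. The cause of the low replicate 3 was not tested. Without both of these libraries the cluster was higher in siSFPQ-3 by 1.24 on the log2 scale, and 0 of the tested members were called.

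No change of the cluster was detectable with siRNAs against NONO or ASOs against NEAT1. In siNONO libraries it averaged 0.659 CPM (14 counts, n = 6), against 0.405 CPM in siCtrl libraries (3 counts, n = 3; exact two-sided permutation p = 0.536, smallest possible 0.0119). By siRNA it was 0.337 CPM in siNONO-3 and 0.980 CPM in siNONO-4, on either side of siCtrl, so the pooled mean mixes them. In ASO-NEAT1 libraries it averaged 0.682 CPM (12 counts, n = 6), against 0.863 CPM in ASO-Ctrl libraries (9 counts, n = 3; exact two-sided permutation p = 0.548, smallest possible 0.0119). By ASO it was 0.477 CPM in ASO-NEAT1-1047 and 0.887 CPM in ASO-NEAT1-1473, on either side of ASO-Ctrl. Between the controls the difference exceeded each SD but the libraries overlapped, at 0.863 CPM in ASO-Ctrl and 0.405 CPM in siCtrl (exact two-sided permutation p = 0.2, smallest possible 0.1, n = 3 each). The siSFPQ and siNONO comparisons share the siCtrl libraries.

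The arms of a hairpin were read as the 5p share of its counts, which does not depend on how libraries are scaled. By these counts MIR302A gave mainly its 5p arm, and the other 4 hairpins mainly their 3p arm. The near-identical miR-302 3p arms may share reads, so the 5p shares and the hairpin shares below carry that uncertainty. The MIR302A hairpin is shown with its mature arms in capitals (chr4:112648183-112648251, minus strand):
MIR302A: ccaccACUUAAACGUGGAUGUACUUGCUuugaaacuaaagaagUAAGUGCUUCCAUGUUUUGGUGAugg

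For miR-302a the 5p share was 73.4%, 79.6% and 85.1% in siSFPQ-3 replicates 1 to 3, and 76.8%, 80.7% and 85.9% in siSFPQ-2. Replicate 1 was lowest and replicate 3 highest in both groups, the reverse of the order of the cluster total. The exact 95% binomial intervals, which cover counting error only and not the spread between libraries, were 72.2% to 74.5% in replicate 1 and 82.7% to 87.2% in replicate 3 of siSFPQ-3, and 74.9% to 78.6% in replicate 1 and 80.1% to 90.6% in replicate 3 of siSFPQ-2. In the 18 other libraries miR-302a-5p had 15 counts and miR-302a-3p 3, a 5p share of 83.3% (58.6% to 96.4%).

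The 3p arm held nearly all counts elsewhere. The 5p share averaged 1.23% ± 0.0942 in siSFPQ-3 and 1.27% ± 0.540 in siSFPQ-2 for miR-302b (SD, n = 3 each). It averaged 1.499% ± 0.365 in siSFPQ-3 and 2.27% ± 0.579 in siSFPQ-2 for miR-302c, and 2.13% ± 0.548 in siSFPQ-3 and 2.15% ± 0.881 in siSFPQ-2 for miR-302d. For miR-367, with 8 counts of the 5p arm and 166 of the 3p arm in siSFPQ libraries, the summed share was 4.60% (2.01% to 8.86%). The 5p share did not differ between the siRNAs beyond the spread of replicates for any of the 4 miR-302 hairpins, with exact two-sided permutation p-values of 0.2 to 1, or 0.8 to 1 after Benjamini-Hochberg adjustment over 4 hairpins.

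**Figure D3:**
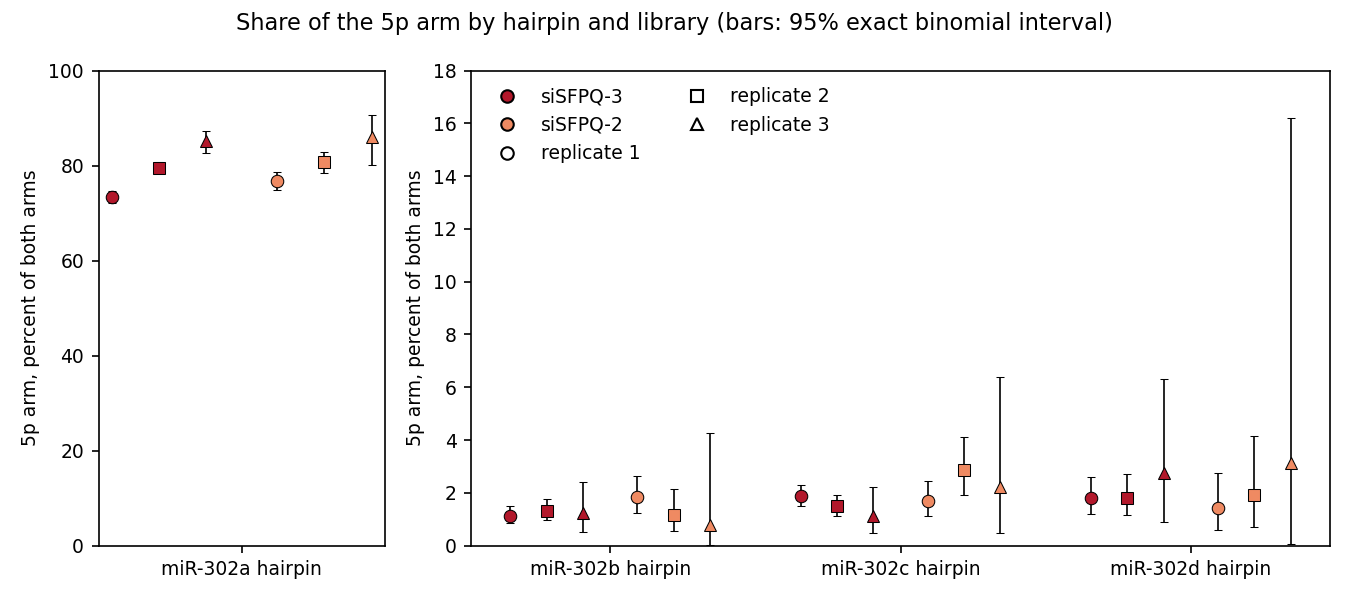
Share of the 5p arm in the counts of each miR-302 hairpin (y axis, percent, with a scale of its own in each panel) in the 6 siSFPQ libraries, with bars for exact 95% binomial intervals. miR-302a lies at 73.4% to 85.9% and its share is highest in replicate 3 of both groups, while the other hairpins lie at 3.13% or less.

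Place in the cluster did not order the hairpins by a simple slope. From the first hairpin to the last, both arms together held 25.5% ± 1.33 (miR-302b), 28.5% ± 1.504 (miR-302c), 36.9% ± 3.61 (miR-302a), 8.67% ± 1.41 (miR-302d) and 0.421% ± 0.0785 (miR-367) of the cluster's counts in siSFPQ-3 (SD, n = 3). In siSFPQ-2 the same shares were 25.7% ± 1.45, 28.0% ± 0.513, 37.6% ± 2.17, 8.33% ± 1.49 and 0.389% ± 0.159 (SD, n = 3). The order, with miR-302a first and then miR-302c, miR-302b, miR-302d and miR-367, was the same in all 6 libraries. Exact two-sided permutation p-values for a difference between the siRNAs were 0.7 to 1 for the 5 hairpins (1 after adjustment).

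The share of miR-302d followed the cluster total among replicates. It was 9.52%, 9.44% and 7.04% in siSFPQ-3 replicates 1 to 3, and 9.53%, 8.79% and 6.67% in siSFPQ-2. That of miR-302a was 32.9%, 37.9% and 39.9% in siSFPQ-3 and 35.1%, 39.1% and 38.5% in siSFPQ-2. Members with the shared 3p seed together held 64.7% to 74.4% of the cluster's counts, and miR-302a-5p held 24.1% to 33.9%.

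**Figure D4:**
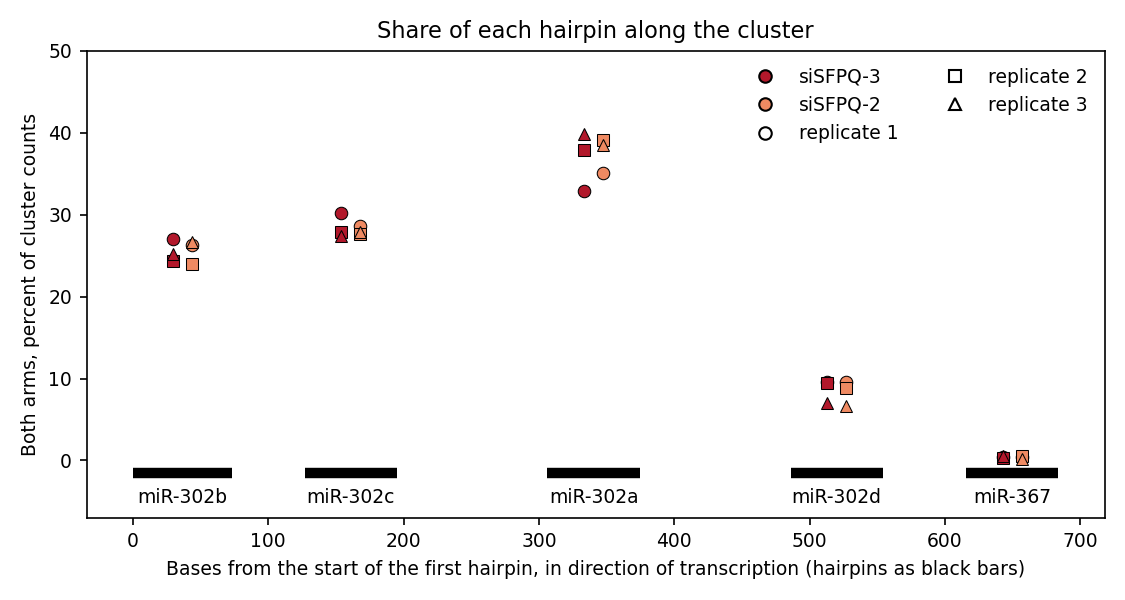
Share of each hairpin, both arms together, in the cluster's counts (y axis, percent) against the distance from the start of the first hairpin in bases (x axis), for the 6 siSFPQ libraries. miR-302a, the third hairpin, holds 32.9% to 39.9%, and miR-367, the last, at most 0.507%.

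Near-identical members may share reads, and some of them had like counts. In the 18 other libraries miR-302b-3p and miR-302c-3p had the same count in every library, 8 of them with any. In siSFPQ libraries the count of miR-302b-3p was 0.876 to 0.969 of that of miR-302c-3p. The count of miR-302a-3p was 0.837 to 0.938 of that of miR-302d-3p there. Other 3p pairs that were as alike in sequence had unlike counts: that of miR-302a-3p was 0.205 to 0.328 of that of miR-302b-3p, and that of miR-302b-3p was 2.60 to 4.10 times that of miR-302d-3p. Reads that match several loci may stand behind more than 1 of these counts, and the cluster total then counts them more than once. If such reads were left out instead, the counts are too low. Over all loci, siSFPQ-3 replicate 1 had 4430484 miRNA counts, against 3255635 with a single locus per miRNA. So miRNAs with several loci had counts at more than 1 of them. Whether reads of near-identical members were treated alike was not tested. So levels of single 3p arms are uncertain, and their sum may be too high or too low. The sources used here do not give how reads with several matches were counted.

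The same holds for miR-302e, whose 17 bases on chromosome 11 (chr11:7234771-7234787, plus strand) differ from the start of each miR-302 3p arm by U15C alone. It had 225, 195 and 21 counts in siSFPQ-3 and 76, 45 and 8 counts in siSFPQ-2, and 0 in all 18 other libraries. That was 3.02% to 6.11% of the count of miR-302c-3p in the same library. miR-302f, also on another chromosome, had 0 counts in all 24. Whether miR-302e counts come from its own locus was not tested.

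The other miRNAs with the miR-302 seed stayed near 0. Of 8 outside the cluster, miR-302e alone had enough counts to pass the filter, which it did through the siSFPQ libraries alone. Its level, at least 64.5-fold higher in siSFPQ libraries than in siCtrl libraries, is given as a description, since its reads may be those of members. The other 7 had 14 counts in all 24 libraries together. Of the 8 products of the miR-371 to miR-373 cluster, the other cluster known from human pluripotent cells, miR-372-3p had 2 counts in all and 7 had none.

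Relatives of miR-367-3p were abundant. Of 5 miRNAs outside the cluster with its seed 4 were tested, and their sequences show the seed in capitals:
miR-92a-3p: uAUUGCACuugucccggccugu
miR-25-3p: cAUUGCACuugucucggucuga
miR-92b-3p: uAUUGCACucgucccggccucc
miR-32-5p: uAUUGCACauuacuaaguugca
None was higher and 1 was lower in siSFPQ over siCtrl, beside 22.7% of all tested miRNAs called lower, with a median log2 fold change of -0.36 beside 0.02 over all 626 tested. As this seed list was drawn up with earlier results of these data known, its calls are given as a description. miR-92a-3p, a product of the miR-17~92 cluster, averaged 13631 ± 1659 CPM in siSFPQ-3 and 16689 ± 4885 CPM in siSFPQ-2, against 18909 ± 11837 CPM in siCtrl (SD, n = 3 each), a log2 fold change of -0.33 ± 0.30 (SE). So the seed of miR-367-3p was present at far higher CPM outside the cluster than the 14.5 CPM that miR-367-3p reached. miR-25-3p was lower in all 6 siSFPQ libraries than in any siCtrl library, at a log2 fold change of -0.39 ± 0.175 (edgeR adjusted p = 0.0719). It passed with RLE factors (0.0455) and with DESeq2 (0.0471), but had 0.072 when sizes came from library totals. miR-92b-3p had -0.16 ± 0.329, did not pass, and was above 0 on library totals, as was miR-92a-3p. The fifth relative, miR-363-3p, had 11 counts in all 24 libraries. miR-32-5p averaged 354 ± 19.4 CPM in siSFPQ-3 and 380 ± 112 CPM in siSFPQ-2, against 613 ± 284 CPM in siCtrl (SD, n = 3 each). It fell by 0.74 ± 0.30 (SE) on the log2 scale (edgeR adjusted p = 0.046). Only 1 of the 6 siSFPQ libraries lay under all siCtrl values, though, and the call was lost when sizes came from library totals (adjusted p = 0.439), spike-in totals (0.178) or RLE factors (0.0568). It was also lost without siSFPQ-3 replicate 1, 2 or 3, siSFPQ-2 replicate 2 or 3, or siCtrl replicate 2 or 3, with edgeR adjusted p-values of 0.0746 to 0.247.

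The seed of miR-17-5p is that of miR-302a-3p moved by a base. Its carriers named here are products of the growth-promoting miR-17~92 cluster and its paralogs. Of 8 miRNAs with this seed 6 were tested. With edgeR, 5 were lower in siSFPQ over siCtrl, beside 22.7% of all tested miRNAs called lower. This list was also drawn up with earlier results of these data known, so its calls are given as a description. The median log2 fold change of the 6 was -0.68. miR-20a-5p averaged 19381 ± 936 CPM in siSFPQ-3 and 23938 ± 2821 CPM in siSFPQ-2, against 34827 ± 11227 CPM in siCtrl (SD, n = 3 each), and fell by 0.69 ± 0.16 (SE, edgeR adjusted p = 0.00089). miR-17-5p fell by 0.81 ± 0.23 and miR-20b-5p by 0.82 ± 0.21, though their counts were within 0.908 to 1.01 of each other in every library and cannot be separated. So the calls of this pair are not separate results. miR-106b-5p fell by 0.60 ± 0.19, while miR-93-5p had -0.27 ± 0.21 and did not pass. Of these calls 2 were left when sizes came from spike-ins and 0 when they came from total counts. The median log2 fold change over the 626 miRNAs was then 0.21 with spike-ins and 0.47 with total counts, and that of miR-20a-5p was -0.54 and -0.26. Without siCtrl replicate 2 the count was 2, and without siCtrl replicate 3 it was 3. In siNONO over siCtrl and ASO-NEAT1 over ASO-Ctrl, no tested miRNA of these seed lists was called, beside 1.6% and 0% of all tested.

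**Figure D5:**
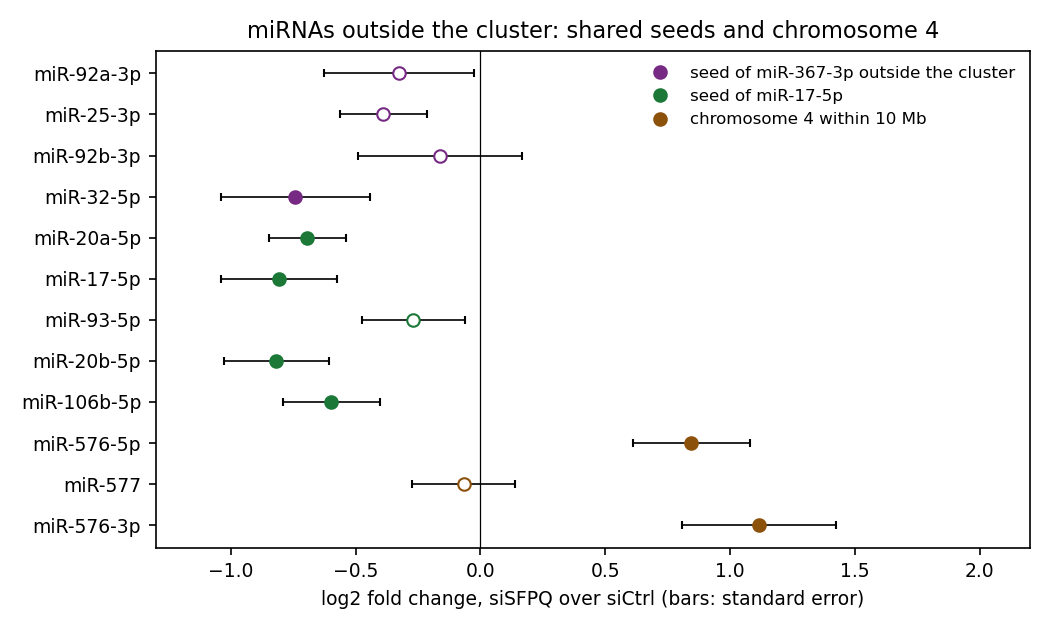
log2 fold change of siSFPQ over siCtrl (x axis, with standard errors) for tested miRNAs outside the cluster that share the seed of miR-367-3p or of miR-17-5p or lie on chromosome 4 within 10 Mb, with filled symbols for an edgeR adjusted p under 0.05. miR-17-5p and miR-20b-5p lie near -0.8 and miR-576-3p at 1.12.

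Neighbours of the cluster on chromosome 4 are given as a description, since the cluster was picked by its level in siSFPQ against siCtrl libraries. Of 6 other miRNAs within 10 Mb, 3 were tested, and 2 rose in siSFPQ over siCtrl, beside 25.6% of all tested miRNAs called higher. miR-576-5p (chr4:109488713-109488734), 3159140 bases from the cluster, averaged 401 ± 53.5 CPM in siSFPQ-3 and 349.9 ± 130 CPM in siSFPQ-2, against 208 ± 66.9 CPM in siCtrl (SD, n = 3 each). It rose by 0.85 ± 0.24 (SE, edgeR adjusted p = 0.00526), and miR-576-3p from the same hairpin by 1.12 ± 0.31. miR-577, 2008217 bases away on the other side, had -0.07 ± 0.21 and did not pass. The nearest, miR-1243, 458310 bases away, had 3 counts in siSFPQ libraries and 12 in the other 18.

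The members moved together across the 6 siSFPQ libraries. Over the 9 members with a count in each of them, Pearson correlations of log2 CPM between members ran from 0.923 to 1.00 (36 pairs, n = 6 libraries), with the caveat that 3p arms may share reads and that all members share the low replicate 3. Outside the cluster, over all 24 libraries, levels most like the cluster total were those of miR-302e (r = 0.979), miR-2355-5p (0.976), the 5p product of MIR1296 (0.970), the 3p product of MIR21 (0.967) and miR-629-5p (0.965). These correlations mostly reflect the split between 6 siSFPQ and 18 other libraries. miR-2355-5p, for example, had 26.0 to 49.5 CPM in siSFPQ libraries and 1.88 to 4.48 CPM in the other 18, so it was present at a low level where the cluster was near 0.

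Over the 6 siSFPQ libraries alone the order was another. It was led by miR-450a-5p (r = 0.981), miR-302e (0.975), miR-143-5p (0.956), miR-181b-3p (0.955) and miR-503-5p (0.9503). miR-450a-5p had 19.8 to 60.5 CPM in siSFPQ libraries and 3.71 to 41.9 CPM in the other 18. miR-143-5p was near the limit of detection, at 0 to 1.36 CPM in siSFPQ libraries and 0.313 to 6.25 CPM in the other 18. With 6 libraries and 626 tested miRNAs, such values are a description of these libraries.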

How the data were processed

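Small RNA libraries came from 100 ng of RNA with added spike-in oligonucleotides (QIAseq kit), per the labels' protocols. Per the file headers, the authors deposited unnormalized counts for each miRNA locus, from featureCounts 2.0.3. Listed in the submitters' processing notes, without settings, are hg38, DESeq2 1.38.1, Subread 2.0.3, UMI-tools 1.1.1, Bowtie 1.3.0 and Trimmomatic 0.39. The sources used here do not say whether molecular identifiers were collapsed. The 2883 loci hold 2652 mature miRNAs, each taken at its locus with the most counts, and 2364 were named by position (within 3 bases) from RefSeq.

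Counts were tested with edgeR 4.0.16 in R 4.3.3: TMM, filterByExpr with a minimum count of 10, 1 model with a term per group over 24 libraries (16 residual degrees of freedom), the quasi-likelihood test and Benjamini-Hochberg adjustment over 626 miRNAs, threshold 0.05. The test was checked on simulated data with the same spread for every miRNA and smaller changes than those of the members against siCtrl. So the check does not cover members near 0 in siCtrl or a wide spread between replicates. Cluster totals and shares were compared by exact permutation over libraries, and binomial intervals (SciPy 1.17.1) are exact. Where a group had 0 counts, folds use a floor of 3 counts over the group. Alternatives were RLE factors, library or spike-in totals, other filters, only the compared groups, DESeq2 1.42.0, a replicate block, 3p arms only, summed counts and leaving out libraries.

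The 10 members, the lists and the markers were chosen with earlier results of these data known. Named by rule were all members, up to 5 miRNAs of each list by mean CPM, and the 5 most like the cluster by Pearson correlation (log2 CPM, prior count 2).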

Additional observations from a re-analysis of the deposited data

How the results depend on the processing

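In siSFPQ-3 over siSFPQ-2, the number of members called was 5 with no filter and 5 with the replicate block, against 0, out of 6 and 12 miRNAs called in all, against 4. Correlations of deviations between libraries of the same number were 0.22, 0.04 and 0.53, so the numbers were not taken as pairs, and 3 of 6 libraries were most like their own number. The block gave p = 0.25 (exact sign-flip, the smallest it allows) for the cluster total, whose log2 difference was 0.46 to 2.25 when single libraries were left out, past no threshold. For siSFPQ over siCtrl, members called higher were 5 at a mean of 10 CPM, where 5 were tested, and with DESeq2 5, or 4 with each siRNA. With siSFPQ-2 alone and only the compared groups, 5 were tested and called.

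Calls of miR-302e were 0 at a mean of 10 CPM, where it was not tested, and 0 with DESeq2. miR-367-3p relatives called lower were 0 on library totals, spike-in totals, at a mean of 10 CPM and in the compared groups alone, 2 with the block and with DESeq2, and 0 to 1 without single libraries. Those of miR-17-5p were 0 on library totals, 2 on spike-in totals and 2 to 5 without single libraries, with 2 without siCtrl replicate 2, 3 without siCtrl replicate 3 and 4 without siSFPQ-3 replicate 3. miR-25-3p passed with the replicate block (-0.42, adjusted p = 0.0123). Log2 fold changes that turned were miR-92a-3p (0.16), miR-25-3p (0.072), miR-92b-3p (0.33), miR-93-5p (0.18) and miR-577 (0.36) on library totals, and miR-92b-3p (0.055) and miR-577 (0.093) on spike-in totals. Without single libraries values ran from -0.594 to 0.289 (miR-92a-3p), -0.471 to 0.529 (miR-92b-3p) and -0.377 to 0.0939 (miR-577).

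Differences without a call turned too. ASO-NEAT1 over ASO-Ctrl was 0.123 CPM for 3p arms and -0.328 to 0.0135 CPM without single libraries. In siSFPQ-3 over siSFPQ-2, without single libraries, 5p shares differed by -4.68 to 1.18 points (miR-302a), -0.281 to 0.253 (miR-302b) and -0.394 to 0.464 (miR-302d), with 0.224 for miR-302d on summed counts. Hairpin shares differed by -2.17 to 1.32 (miR-302a), -0.950 to 0.453 (miR-302b), -0.423 to 0.991 (miR-302c), -0.491 to 1.15 (miR-302d) and -0.0593 to 0.0899 (miR-367), with 0.253 (miR-302b) and -0.0705 (miR-367) on summed counts and 0.428 (miR-302a) on 3p arms. The cause was not tested. Depth limits members under 10 CPM and all 18 libraries outside siSFPQ.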
